A study of Mus musculus with 6 samples.

Results

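The kinetochore is the protein machine that assembles on each centromere and holds chromosomes to spindle microtubules in mitosis. Its inner layer sits on nucleosomes that carry the histone variant CENP-A, its outer layer binds microtubules, and the spindle assembly checkpoint signals from kinetochores that are not yet attached. That signal blocks the anaphase-promoting complex (APC/C), the ubiquitin ligase that starts chromosome separation. Transcripts of many of these genes are known to peak in G2 and M phase, so their level in a culture can vary with the share of dividing cells.

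A set of 40 genes of this machine was read from a gene expression table of 56748 genes by gene name, with each name matching 1 row. The libraries come from RAW264.7, a mouse macrophage-like line derived from a tumour induced by Abelson leukaemia virus. In 3 libraries the cells had been infected with lentivirus carrying Fbxw11 together with a GFP marker (pMSCV-Fbxw11-pGk-GFP), and in the other 3 with lentivirus carrying a control vector, whose libraries are named GFP. All cells were sorted before RNA extraction and none is labelled with another treatment. Fbxw11 encodes β-TrCP2, an F-box protein that selects substrates for an SCF ubiquitin ligase, and the series title asks about its part in macrophage polarization. Whether a group's libraries are separate infections or cultures is not in the labels, nor whether the sorted cells were a pool or a clone. The spread behind each p-value may thus be a technical one.

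Values are FPKM (fragments per kilobase of gene length, scaled to library size), as deposited, and are given as mean ± SD over n = 3 libraries. Reads recovered from them numbered 16191971 to 18951653 per library. The library size implied by the FPKM was 1.014 to 1.018 times this read sum in control and 0.987 to 0.993 times in Fbxw11 libraries. The deposited scaling was thus not by the plain read sum, and it differed by group. Fbxw11 stood between 35.8 and 36.5 FPKM in control and between 268 and 274 FPKM in Fbxw11 libraries, in the direction of the labels; reads of the vector copy and of the cells' own gene cannot be told apart. Control library 3 and Fbxw11 library 3 stood apart from the other 4 along the principal component with 23.7% of the variance, and leaving out both is reported beside the counts. Of 9 tested macrophage markers 4 rose and 0 fell, where 4.6% of all tested genes rose. Of the 4, Adgre1 and Itgam kept their call under all 17 alternatives, while Fcgr1 and Lyz2 each lost it under 13. Lyz2 alone averaged 2346 and 2628 FPKM in the control and Fbxw11 groups, and the summed level of all 10 markers was 4224 to 4398 FPKM in control and 4681 to 4806 FPKM in Fbxw11 libraries. The macrophage marker Adgre1 (F4/80) rose from 55.0 ± 1.33 to 80.4 ± 2.34 FPKM. None of 3 tested B cell markers passed, with sums of 4.42 to 4.92 and 3.09 to 4.47 FPKM. Of the T cell, fibroblast, epithelial and erythroid markers none reached a mean of 1 FPKM, and Cd3g, Cd8a, Krt18 and Hbb-bs were listed at 0. The part of these marker levels in the differences below was not tested.

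Kinetochore and checkpoint transcripts were lower in the Fbxw11 libraries. Genes were tested where their mean over the 6 libraries was at least 1 FPKM, which 38 of the 40 reached and Cenpu and Sgo2a did not. Of these 38, 27 fell and 0 rose (limma on log2(FPKM + 1), Benjamini-Hochberg adjusted p under 0.05 over all 10898 genes tested), where 4.64% of all tested genes fell and 4.6% rose. The remaining 11 did not pass. All 3 Fbxw11 libraries lay below the lowest control library for 33 of the 38, against 15.5% of all tested genes. They lay above the highest control library for 1, Zwint, against 15.6%. The median log2 fold change over the 38 was -0.43, beside 0.00 over all tested genes, and the median ratio of mean FPKM was 1.45-fold lower. Every adjusted p below is from this limma fit unless voom, a left-out library or another filter is named.

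Summed over all 40 genes, the level was 291, 286 and 286 FPKM in control libraries 1 to 3 and 221, 225 and 223 FPKM in Fbxw11 libraries 1 to 3. The groups did not overlap, and the sum was 22.5% lower in the Fbxw11 libraries. The difference was of like size in each library, with the median gene at -0.40, -0.40 and -0.41 from the control mean on the log2(FPKM + 1) scale in Fbxw11 libraries 1 to 3. Because the cells were measured in bulk, fewer cells in division and less RNA of these genes per dividing cell cannot be told apart.

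The count of falls depended on the libraries used. Without control library 1 it was 15 (2.14% of all tested genes fell), without control library 2 it was 14 (2.02%) and without Fbxw11 library 2 it was 16 (2.61%). Without both libraries numbered 3 it was 19 (3.07%). Without control library 2, 13 of the 27 calls were lost, those of Hjurp, Cenpa, Cenpq, Cenpn, Cenpm, Cenpi, Spc25, Ska3, Spc24, Cenpf, Bub1b, Mad2l1 and Incenp, with adjusted p between 0.0545 and 0.146. These were lost as well, except Cenpn, without control library 1 (0.057 to 0.139), and, except Mad2l1 and Incenp, without Fbxw11 library 2 (0.0514 to 0.127). Leaving out control library 3, Fbxw11 library 1 or Fbxw11 library 3 lost 9, 6 and 7 of the same 13. Every one of the 27 kept a negative log2 fold change under every alternative that gave a value. On reads recovered from FPKM, limma-voom called 30 of the 38 lower and 0 higher, where it called 6.86% of all tested genes lower and 6.9% higher. Scaling shifted the balance over all genes, from 506 lower and 501 higher to 712 lower and 348 higher on the TPM scale, and there 28 of the 38 were lower (6.53% of all tested genes) and 0 higher.

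**Figure D1:**
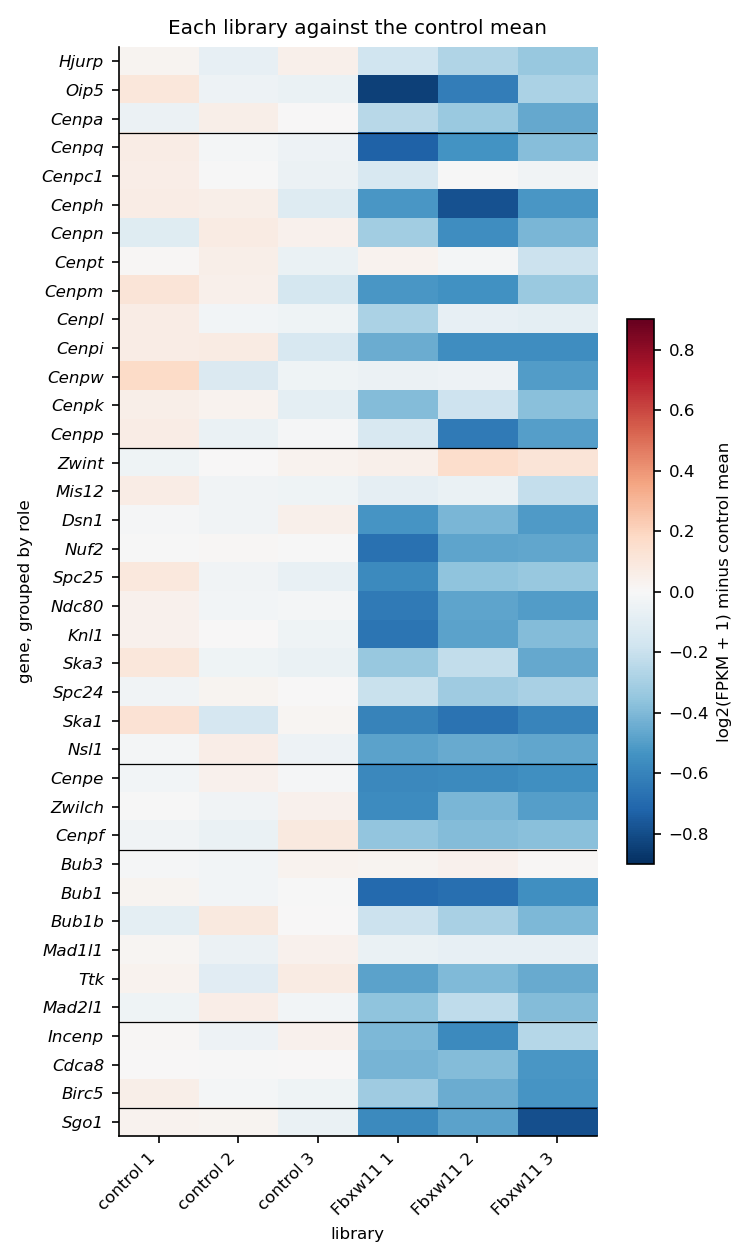
Heat map of the 38 tested genes (rows, grouped by role) in the 6 libraries (columns); the colour is log2(FPKM + 1) minus the mean of the control libraries. Blue, for lower, fills the Fbxw11 columns for most rows, while Zwint, Bub3, Mad1l1, Cenpc1 and Cenpt stay pale.

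Promoters of the set were compared for short letter strings linked to cell cycle transcription: the CCAAT box, bound by NF-Y, and TTTGAA or TTTAAA, the core of the cell cycle genes homology region (CHR), bound by the MuvB complex. Sequences are from RefSeq (GRCm38.p6) and run from 250 bases before to 50 after the gene start. RefSeq promoters were matched for 35 of the 40 genes, not for Incenp, Nsl1, Ska1, Spc24 and Zwilch. The following were chosen to show genes that fell with both kinds of string (Cenpe and Ttk), the most abundant gene (Zwint) and 2 further genes that did not pass (Mis12 and Bub3, the latter by the first of its RefSeq starts). Capitals mark these strings on either strand, so that a reverse CCAAT reads ATTGG and a reverse CHR core of the first kind reads TTCAAA.
Cenpe, chr3:135212313-135212612, plus strand: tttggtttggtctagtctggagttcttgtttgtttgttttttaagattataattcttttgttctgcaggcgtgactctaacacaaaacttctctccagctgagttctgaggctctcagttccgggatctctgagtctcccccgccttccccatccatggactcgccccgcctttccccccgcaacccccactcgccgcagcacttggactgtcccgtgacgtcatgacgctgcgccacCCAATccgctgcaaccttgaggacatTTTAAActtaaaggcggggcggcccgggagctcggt
Ttk, chr9:83834439-83834738, plus strand: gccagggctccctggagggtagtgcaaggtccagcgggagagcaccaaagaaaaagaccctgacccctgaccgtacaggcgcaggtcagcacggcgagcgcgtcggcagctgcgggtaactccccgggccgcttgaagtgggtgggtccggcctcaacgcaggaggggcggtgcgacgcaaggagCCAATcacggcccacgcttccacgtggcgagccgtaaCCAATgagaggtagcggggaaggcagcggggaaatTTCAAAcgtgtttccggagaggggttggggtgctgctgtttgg
Zwint, chr10:72654596-72654895, plus strand: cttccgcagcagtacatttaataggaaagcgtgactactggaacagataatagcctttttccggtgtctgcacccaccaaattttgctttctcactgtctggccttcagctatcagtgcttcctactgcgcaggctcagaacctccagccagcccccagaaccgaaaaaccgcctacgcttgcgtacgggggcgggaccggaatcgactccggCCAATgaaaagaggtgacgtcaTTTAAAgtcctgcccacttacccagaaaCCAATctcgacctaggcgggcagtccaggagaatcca
Mis12, chr11:71019361-71019660, plus strand: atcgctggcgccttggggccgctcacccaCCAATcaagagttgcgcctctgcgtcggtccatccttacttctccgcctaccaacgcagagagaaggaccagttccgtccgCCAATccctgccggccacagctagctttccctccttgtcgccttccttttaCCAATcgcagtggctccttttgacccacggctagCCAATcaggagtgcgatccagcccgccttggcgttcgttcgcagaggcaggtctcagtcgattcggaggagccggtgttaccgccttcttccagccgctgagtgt
Bub3, chr7:131560120-131560419, plus strand: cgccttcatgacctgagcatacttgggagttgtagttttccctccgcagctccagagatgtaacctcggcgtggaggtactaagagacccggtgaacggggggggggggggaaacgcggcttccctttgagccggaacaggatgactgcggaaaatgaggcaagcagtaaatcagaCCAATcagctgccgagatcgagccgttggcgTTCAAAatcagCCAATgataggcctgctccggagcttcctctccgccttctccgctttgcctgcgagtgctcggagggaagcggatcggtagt

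CCAAT was found in a promoter of 25 of the 35 genes (71.4%), beside 43.1% of 7889 tested genes with a RefSeq promoter and 41.1% of all 27025 genes with one. TTTGAA or TTTAAA was found in 20 of the 35 (57.1%), beside 22.7% and 30.6%. Both kinds of string together were found in 15 of the 35 (42.9%), beside 9.32% and 12.2%. Of 4 strings of the E2F type, searched on both strands, TTCCCGC was found in 8 of the 35, while TTGGCGC, which can overlap a reverse CCAAT, was found in 1 of them. TTCGCGC was in 0 of the 35 and so was TTGCCGC. Any of the 4 stood in 8 genes (22.9%), beside 20.5% of tested genes and 10.9% of all genes with a RefSeq promoter. Among genes that fell and tested genes that did not pass, CCAAT stood in 15 of 22 (68.2%) and 8 of 11 (72.7%), TTTGAA in 11 of 22 (50%) and 4 of 11 (36.4%), and either CHR core in 13 of 22 (59.1%) and 7 of 11 (63.6%). Both kinds together stood in 9 of 22 (40.9%) and 6 of 11 (54.5%), and any of the E2F-type strings in 4 of 22 (18.2%) and 3 of 11 (27.3%). No test of these differences was made. Zwint and Bub3, which did not pass, hold both strings, as printed above. These matches are descriptions of letters, and binding was not measured.

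At the base of the kinetochore, genes of the CENP-A nucleosome fell in 2 of 3. Cenpa, the centromeric histone H3 variant, stood at 2.80, 3.09 and 2.96 FPKM in control libraries 1 to 3 and at 2.33, 2.13 and 1.87 FPKM in Fbxw11 libraries 1 to 3. All Fbxw11 values lay below all control values (log2 fold change -0.35, SE 0.0727, adjusted p = 0.0328). That call was lost under 9 of the 16 alternatives that gave a value. Hjurp, the chaperone that deposits CENP-A, fell from 13.8 ± 0.640 to 11.3 ± 0.673 FPKM (adjusted p = 0.0319, lost under 8 of 17). Oip5, the Mis18-beta subunit that licenses centromeres for new CENP-A, was 5.10, 4.51 and 4.44 FPKM in control and 2.18, 2.68 and 3.66 FPKM in Fbxw11 libraries. Its groups did not overlap, but Fbxw11 library 3 lay nearest to control and the gene just missed the threshold (log2 fold change -0.58, SE 0.139, adjusted p = 0.05004). Without Fbxw11 library 3 its adjusted p was 0.0146, and with voom it was 0.0112. Oip5 overlaps Nusap1, a spindle gene that fell, on the other strand by 172 bases, and the sources used here do not say whether counting used strand.

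Inner kinetochore genes divided: 5 of 11 tested members fell and 6 did not pass. Cenph, of the CENP-H/I/K/M group, stood at 7.70, 7.64 and 6.68 FPKM in control and at 4.78, 3.83 and 4.80 FPKM in Fbxw11 libraries. The groups were well apart (1.64-fold lower, log2 fold change -0.61, SE 0.0898, adjusted p = 0.0103). Its partners Cenpi and Cenpm fell as well, Cenpi from 2.77 ± 0.313 to 1.62 ± 0.123 FPKM (1.71-fold) and Cenpm from 3.35 ± 0.417 to 2.14 ± 0.254 FPKM (1.56-fold). Cenpi lost its call under 4 of 16 alternatives and Cenpm under 6 of 16. Cenpk, the remaining subunit of that group, was 1.65, 1.61 and 1.41 FPKM in control and 0.951, 1.24 and 0.965 FPKM in Fbxw11 libraries. Its values did not overlap either, and its ratio of means was 1.48-fold lower, but it did not pass (adjusted p = 0.0778, and 0.0211 with voom). It had 81 to 162 reads per library.

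Cenpq, of the CENP-O/P/Q/U/R group, which helps bring the kinase Plk1 to kinetochores, was 13.2, 12.4 and 12.2 FPKM in control and 7.22, 8.35 and 9.42 FPKM in Fbxw11 libraries. It fell 1.51-fold (log2 fold change -0.55, SE 0.0875, adjusted p = 0.0132, lost under 3 of 17 alternatives). Cenpp, a partner in that group, stood at 1.66, 1.44 and 1.52 FPKM and at 1.29, 0.634 and 0.801 FPKM, with 29 to 71 reads per library. Its Fbxw11 libraries were the more scattered, and it did not pass (adjusted p = 0.108, 0.0400 with voom and 0.036 without Fbxw11 library 1). Cenpu was 0.928, 0.715 and 1.08 FPKM in control and 0.476, 0.728 and 0.338 FPKM in Fbxw11 libraries. Its groups overlapped, and its mean of 0.710 FPKM over all libraries left it under the filter. It had 23 to 73 reads per library, and with the filter lowered to 0.1 FPKM its adjusted p was 0.208.

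Cenpn, which reads the CENP-A nucleosome together with Cenpl, fell from 6.84 ± 0.529 to 4.83 ± 0.507 FPKM (1.41-fold, adjusted p = 0.0238, lost under 7 of 17 alternatives). Cenpl was 2.86, 2.64 and 2.59 FPKM in control and 2.03, 2.51 and 2.47 FPKM in Fbxw11 libraries. The groups were separate by a narrow gap, and Cenpl did not pass (log2 fold change -0.15, SE 0.0771, adjusted p = 0.289). Cenpc1 encodes CENP-C, which ties CENP-A nucleosomes to the outer kinetochore, and stood at 7.36, 6.99 and 6.74 FPKM in control and at 6.27, 7.01 and 6.86 FPKM in Fbxw11 libraries. The groups overlapped (log2 fold change -0.06, SE 0.0547, adjusted p = 0.564). Cenpt, the other inner anchor of the outer layer, was 5.30, 5.49 and 4.998 FPKM and 5.39, 5.18 and 4.47 FPKM, again overlapping (log2 fold change -0.06, SE 0.0699, adjusted p = 0.641, and a log2 fold change of 0.0048 without Fbxw11 library 3). Cenpw, the histone-fold partner of Cenpt, was 2.09, 1.51 and 1.67 FPKM and 1.65, 1.66 and 0.934 FPKM. Its groups overlapped and its error was wide (log2 fold change -0.20, SE 0.150, adjusted p = 0.468).

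**Figure D2:**
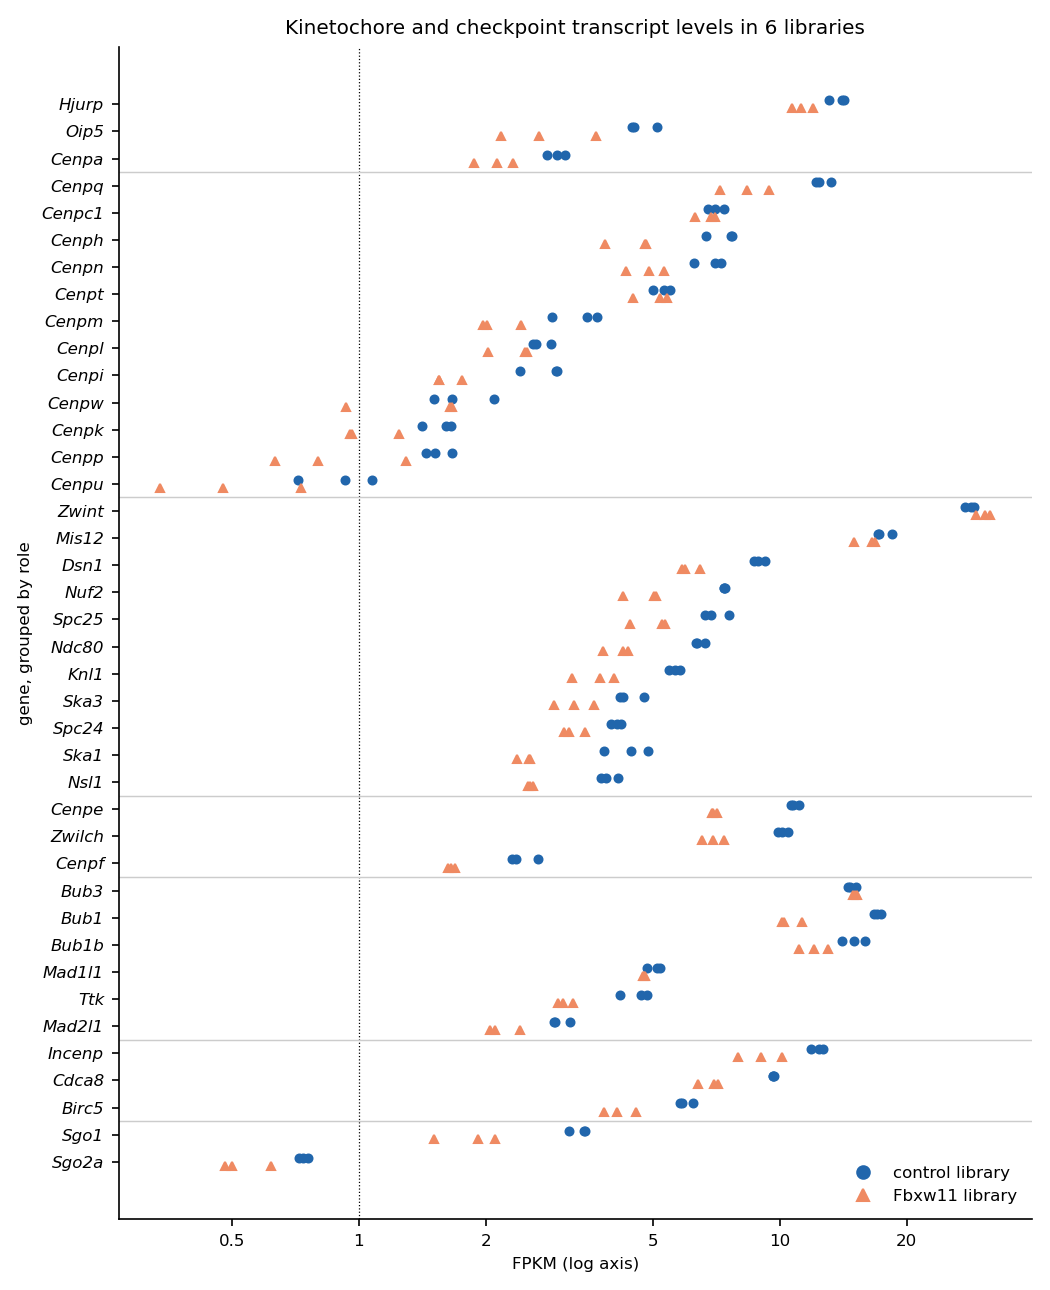
FPKM (log axis) of all 40 genes in each library, grouped by role, with circles for the 3 control and triangles for the 3 Fbxw11 libraries; the dotted line marks 1 FPKM. Levels ran from under 1 FPKM for Sgo2a and Cenpu to 28.2 FPKM (control mean) for Zwint, and triangles lie left of circles for most genes.

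Outer kinetochore genes, which make the contact with microtubules, fell in 9 of 11. The Ndc80 complex is a rod of 4 subunits, and all 4 fell. Ndc80 itself was 6.65, 6.32 and 6.37 FPKM in control and 3.79, 4.36 and 4.25 FPKM in Fbxw11 libraries (log2 fold change -0.54, SE 0.0561, adjusted p = 0.00343). Nuf2, its partner at the microtubule end, fell from 7.37 ± 0.0356 to 4.78 ± 0.464 FPKM (1.54-fold). Spc25 and Spc24, at the inner end, fell 1.41-fold and 1.27-fold. Spc25 lost its call under 5 of 17 alternatives and Spc24 under 8 of 16. Within the rod, the ratio of Nuf2 to Ndc80 was 1.14 ± 0.0348 in control and 1.15 ± 0.0366 in Fbxw11 libraries, overlapping between groups.

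Knl1, the scaffold that recruits checkpoint proteins, fell from 5.62 ± 0.177 to 3.66 ± 0.422 FPKM (1.54-fold, adjusted p = 0.00946). Its binding partner Zwint, the most abundant of the 40, was 27.5, 28.3 and 28.9 FPKM in control and 29.2, 31.6 and 30.6 FPKM in Fbxw11 libraries. Every Fbxw11 value lay above every control value, but the difference did not pass (log2 fold change 0.11, SE 0.0406, adjusted p = 0.173). The ratio of Knl1 to Zwint was 0.199 ± 0.0113 in control and 0.120 ± 0.0112 in Fbxw11 libraries. Of the Mis12 complex, which bridges inner and outer layers, Dsn1 fell from 8.92 ± 0.270 to 6.09 ± 0.326 FPKM and Nsl1 from 3.91 ± 0.186 to 2.55 ± 0.0326 FPKM (1.46-fold and 1.53-fold, adjusted p = 0.002998 and 0.00391). Mis12 was 18.4, 17.2 and 17.1 FPKM in control and 16.6, 16.8 and 15.01 FPKM in Fbxw11 libraries. Its groups were separate but close (log2 fold change -0.12, SE 0.0543, adjusted p = 0.235). The ratio of Dsn1 to Mis12 was accordingly 0.480, 0.504 and 0.539 in control and 0.354, 0.385 and 0.396 in Fbxw11 libraries. The Ska complex stabilises attachments on moving microtubule ends. Ska1 was 4.85, 3.82 and 4.42 FPKM in control and 2.53, 2.37 and 2.55 FPKM in Fbxw11 libraries, well separated (1.76-fold lower, log2 fold change -0.62, SE 0.0795, adjusted p = 0.00656). Ska3 fell from 4.39 ± 0.330 to 3.26 ± 0.359 FPKM (adjusted p = 0.0462, lost under 10 of 16 alternatives).

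The corona, the outermost layer that captures microtubules, was represented by 3 genes, and all 3 fell. Cenpe, a kinesin that moves chromosomes to the spindle equator, was 10.6, 11.1 and 10.7 FPKM in control and 6.90, 6.93 and 7.07 FPKM in Fbxw11 libraries. The libraries of each group lay close together and far from the other group (log2 fold change -0.57, SE 0.0370, adjusted p = 0.000814). Zwilch, of the Rod-Zw10-Zwilch complex that brings dynein and Mad1-Mad2 to kinetochores, stood at 10.1, 9.87 and 10.5 FPKM and at 6.52, 7.38 and 6.92 FPKM (log2 fold change -0.49, SE 0.0514, adjusted p = 0.00345). Cenpf, a large microtubule-binding corona protein, fell from 2.44 ± 0.190 to 1.66 ± 0.0346 FPKM (1.47-fold, adjusted p = 0.0186, lost under 8 of 16 alternatives).

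Checkpoint genes fell in 4 of 6. Bub1, the kinase that marks centromeric histone H2A, was 17.3, 16.7 and 16.9 FPKM in control and 10.1, 10.2 and 11.3 FPKM in Fbxw11 libraries. Its groups lay far apart (log2 fold change -0.64, SE 0.0484, adjusted p = 0.00122). Ttk, the Mps1 kinase that starts the checkpoint signal, was 4.67, 4.18 and 4.83 FPKM and 2.97, 3.22 and 3.05 FPKM (log2 fold change -0.44, SE 0.0618, adjusted p = 0.00846). Without both libraries numbered 3 the adjusted p of Ttk was 0.0533. Mad2l1, which encodes the Mad2 inhibitor of Cdc20, fell from 2.999 ± 0.152 to 2.19 ± 0.198 FPKM (1.37-fold, adjusted p = 0.0314, lost under 8 of 16 alternatives). Bub1b, the gene of BubR1, fell from 14.98 ± 0.959 to 12.0 ± 0.953 FPKM (1.25-fold, adjusted p = 0.0465, lost under 11 of 17).

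Bub3 and Mad1l1 did not pass. Bub3, which docks Bub1 and BubR1 on Knl1, was 14.7, 14.5 and 15.2 FPKM in control and 15.1, 15.2 and 14.9 FPKM in Fbxw11 libraries, with the groups overlapping (log2 fold change 0.03, SE 0.0342, adjusted p = 0.699, with the sign turned to -0.02 on the TPM scale and -0.01 over plain read sums). Mad1l1, the kinetochore platform of Mad2, stood at 5.10, 4.82 and 5.19 FPKM and at 4.78, 4.74 and 4.73 FPKM. Its groups were separate by a small margin (log2 fold change -0.07, SE 0.0440, adjusted p = 0.388). The ratio of Bub1 to Bub3 was 1.18, 1.16 and 1.12 in control and 0.671, 0.671 and 0.759 in Fbxw11 libraries. The ratio of Mad2l1 to Mad1l1 was 0.597 ± 0.0536 in control and 0.461 ± 0.0419 in Fbxw11 libraries, also with no overlap. Other partners overlapped between groups: the ratio of Spc25 to Spc24 was 1.72 ± 0.162 in control and 1.56 ± 0.243 in Fbxw11 libraries, and that of Cenpn to Cenpl was 2.55 ± 0.317 and 2.10 ± 0.466. All these ratios of subunits were chosen after the values were seen and were not tested.

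The chromosomal passenger complex corrects faulty attachments at the inner centromere, and its 3 genes in the set fell. Cdca8, the gene of borealin, was 9.65, 9.61 and 9.64 FPKM in control and 6.97, 7.11 and 6.38 FPKM in Fbxw11 libraries. Its control libraries were nearly equal and the groups were well apart (log2 fold change -0.44, SE 0.0469, adjusted p = 0.00346). Birc5, the gene of survivin, was 6.20, 5.86 and 5.77 FPKM and 4.55, 4.10 and 3.81 FPKM (log2 fold change -0.43, SE 0.0638, adjusted p = 0.0105). Incenp, the scaffold, fell from 12.3 ± 0.394 to 9.02 ± 1.09 FPKM (1.36-fold, adjusted p = 0.0258, lost under 5 of 17 alternatives). The complex's kinase Aurkb, named after its value was seen, stood at 4.40 ± 0.324 and 3.40 ± 0.556 FPKM and did not pass (adjusted p = 0.123). Shugoshins guard centromeric cohesion until anaphase. Sgo1 was 3.45, 3.43 and 3.16 FPKM in control and 1.92, 2.10 and 1.51 FPKM in Fbxw11 libraries, a 1.81-fold fall in mean FPKM (log2 fold change -0.62, SE 0.0897, adjusted p = 0.00982). Sgo2a was 0.720, 0.735 and 0.757 FPKM in control and 0.499, 0.480 and 0.620 FPKM in Fbxw11 libraries. Its groups did not overlap, but its mean of 0.635 FPKM over all libraries lay under the filter. It had 57 to 99 reads per library, and with the filter lowered to 0.1 FPKM its adjusted p was 0.218.

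**Figure D3:**
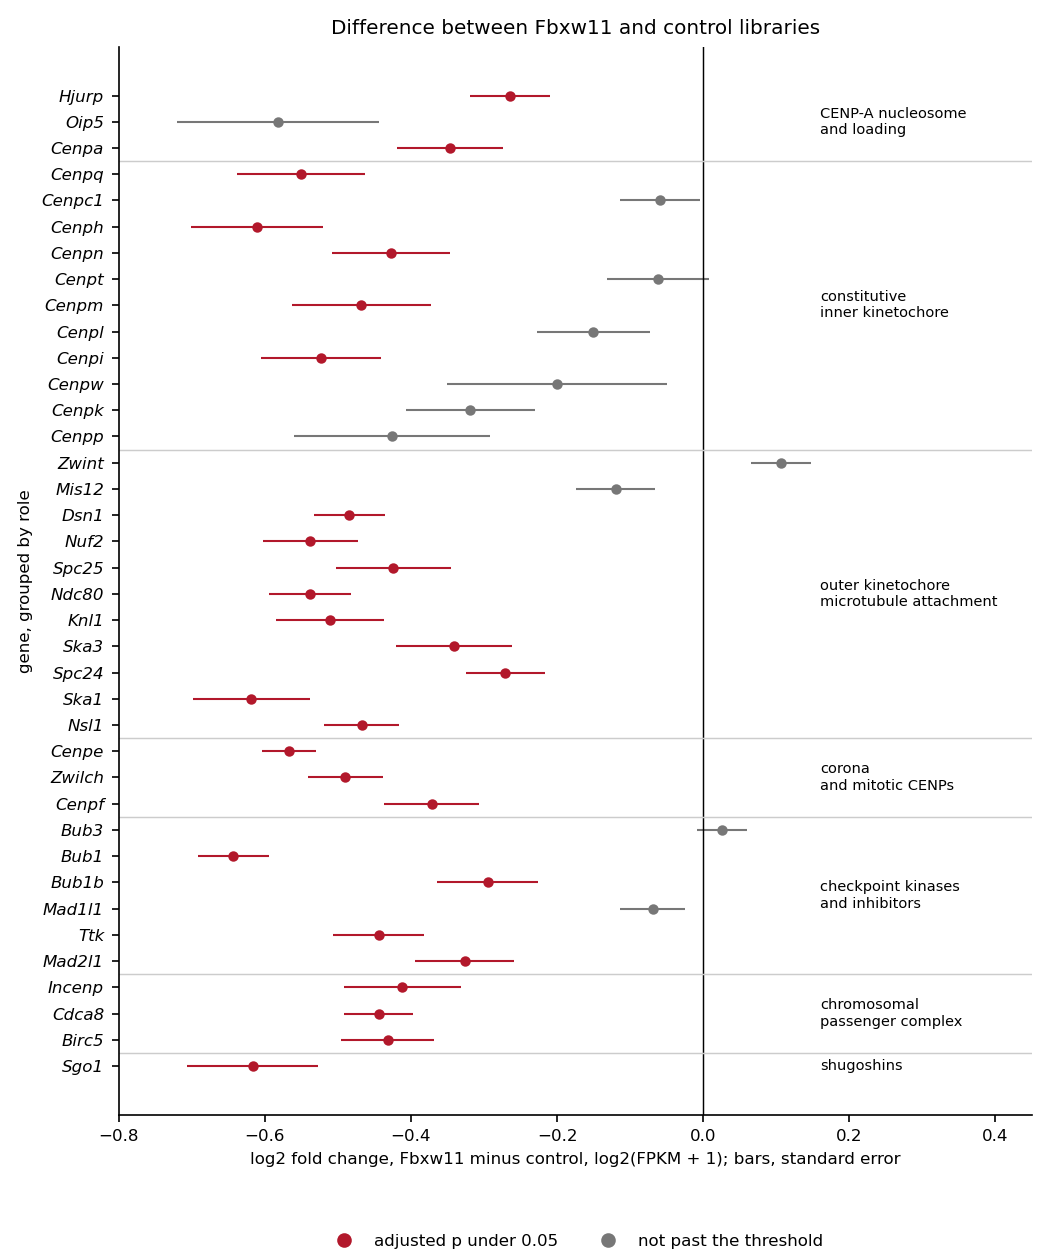
Log2 fold change (Fbxw11 minus control, log2(FPKM + 1)) of the 38 tested genes, grouped by role; bars are standard errors and red points passed an adjusted p of 0.05. Red points lie between -0.64 for Bub1 and -0.26 for Hjurp, and grey points lie nearer 0 except for Oip5, Cenpp and Cenpk.

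Genes of low level were among those that did not pass. None of the 3 tested genes with a control mean under 2 FPKM (Cenpw, Cenpk and Cenpp) passed, against 27 of 35 at or above it. The cut at 2 FPKM was not planned in advance, and the split was not tested. The log2(FPKM + 1) scale understates changes of low genes. The median log2 fold change over the 38 was -0.52 with a pseudocount of 0.1 and -0.53 with voom. With the pseudocount of 0.1 the same 27 genes were called lower. Voom called Oip5, Cenpk and Cenpp lower as well, and which part of that fit added them was not tested. Among genes with a control mean above 5 FPKM, Zwint, Mis12, Bub3, Cenpc1, Cenpt and Mad1l1 did not pass at depths of 278 to 2501 reads per library. A gene on the other strand with a mean of at least 1 FPKM overlapped 9 of the 40, and only Nusap1 beside Oip5 was itself called.

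Related lists place these values among other division genes, and the count of falls in each stands beside 4.64% of all tested genes. Of 23 further kinetochore and checkpoint genes 12 fell and 0 rose, with a median log2 fold change of -0.31. Kntc1, the Rod partner of Zwilch, fell from 8.98 ± 0.235 to 6.10 ± 0.226 FPKM (adjusted p = 0.00183). Zw10, of the same complex and named after its value was seen, was 58.7 ± 0.978 and 60.6 ± 0.799 FPKM. Its Fbxw11 values all lay above its control values, but it did not pass (log2 fold change 0.04, adjusted p = 0.413). Spag5, the gene of astrin, fell from 6.90 ± 0.285 to 4.80 ± 0.0636 FPKM (adjusted p = 0.00289). Some partners of the genes above, named after their values were seen, were as mixed: Pmf1 of the Mis12 complex (-0.26, lost under 4 alternatives), Ska2 (-0.42, lost under 8) and Cenps (-0.55) fell, while Cenpx (-0.04), Cenpo (-0.20) and Itgb3bp (-0.21), the gene of CENP-R, did not pass.

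Downstream of the checkpoint, 7 of 23 genes of the APC/C, its regulators and its targets fell and 0 rose (median log2 fold change -0.09). None of the core subunits listed fell. The mitotic cyclin Ccnb1 fell from 15.03 ± 0.440 to 10.9 ± 0.727 FPKM (adjusted p = 0.00604) and Pttg1, the gene of securin, from 8.08 ± 0.413 to 5.53 ± 0.418 FPKM (adjusted p = 0.00658). The other falls, named after their values were seen, were the cyclin Ccna2 (-0.58), the activator Cdc20 (-0.29), the conjugating enzyme Ube2c (-0.48), the inhibitor Fbxo5 (-0.65, lost under 6 alternatives) and separase, Espl1 (-0.31, lost under 9).

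Reference genes of mitosis and of DNA replication fell more often than not. Of 19 mitotic genes outside the set 18 fell (median log2 fold change -0.54), such as Mki67 (-0.73) and the condensin subunit Smc2 (-0.56). Of 20 replication genes 19 fell (median -0.46), such as Mcm6 (-0.64) and Uhrf1 (-0.65). The set's median of -0.43 lay beside those of S phase and mitotic genes on the log2(FPKM + 1) scale. With voom the medians were -0.53 for the set, -0.49 for replication, -0.61 for mitotic and -0.46 for further kinetochore genes. The order of set and replication genes thus depended on the scale, and no test of a difference between lists was made. Of 13 cohesin and cohesion protection genes 2 fell, Rad21 (-0.22, lost under 2 alternatives) and Smc3 (-0.23, lost under 5), and 0 rose (median -0.10). That count depended on the fit: voom called 5 of the 13 lower and 1, Ppp2r1a, higher, beside 6.86% and 6.9% of all tested genes.

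**Figure D4:**
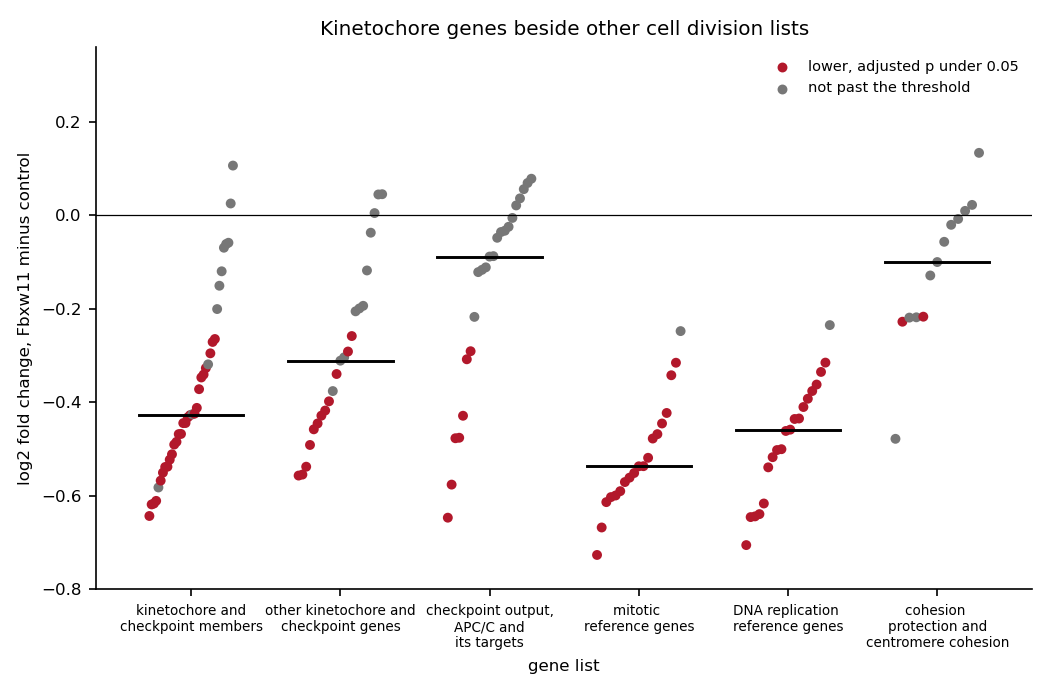
Log2 fold change (Fbxw11 minus control, log2(FPKM + 1)) of each tested gene in the set and in 5 related lists; points are genes, red where lower with an adjusted p under 0.05, and bars are medians. Medians were -0.43 for the set, -0.31 for further kinetochore genes, -0.09 for APC/C genes, -0.54 for mitotic genes, -0.46 for replication genes and -0.10 for cohesion genes.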

How the data were processed

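RNA sequencing libraries of 3 control and 3 Fbxw11 RAW264.7 samples were compared. The authors deposited FPKM per gene with gene lengths, per the file headers. The build named is mm10, per the submitters' processing notes, and the aligner, counting tool, strand setting and annotation release were not given in the sources used here. Multiplied by gene length, 100% of values above 0 were whole multiples of a step per library (within 0.02 reads), so reads were recovered for depth and for limma-voom (with a trimmed mean of M-values scaling written for this purpose). They cover counting error only. Genes averaging 1 FPKM or more over the 6 libraries were tested on log2(FPKM + 1) with limma 3.58.1 in R 4.3.3 (lmFit, eBayes with trend, two-sided, no covariate), with Benjamini-Hochberg adjustment over all genes tested and a threshold of 0.05. The procedure was tested on simulated reads with known changes, independent libraries and no scaling difference between groups. As the deposited scaling differed by group, no conclusion about the calls above is drawn from that test. No library was counted as a copy, since pairs within a group gave a chi-square over its degrees of freedom of 2.42 to 5.86.

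The set and the lists were chosen with earlier results of these data known. Per-library values are given for tested genes that did not pass, the 2 genes of each role with the largest absolute log2 fold change and the 3 most abundant. From each list the 2 genes with the smallest p are named. Alternatives were TPM and plain-sum scaling, pseudocounts, filters, no trend, voom, a replicate block and left-out libraries. The planned edgeR and DESeq2 fits were not run, since the table holds FPKM.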

Additional observations from a re-analysis of the deposited data

How the results depend on the processing

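Of the 27 falls, 13 held under each of 17 alternatives that gave the gene a value, 5 were lost under 1 to 5 and 9 under more than 5, and none turned sign. Under every alternative 0 of the genes rose. The number that fell was 15 with no filter, where 307 of all genes with a value above 0 fell. It was 15 with a mean of at least 5 FPKM (20 of the 40 tested), where 381 of all genes at that level fell. How many genes were tested under these filters is not given here, so the counts have no share beside them. With a replicate block the number of the set that fell was 17, where 318 of all 10898 tested genes fell. Leaving out a library gave 14 to 22. Over all genes tested, those called lower numbered 335 without both libraries numbered 3. Genes called higher numbered 289 with no filter, 303 with the replicate block and 752 with voom. Leaving out a library gave 220 to 383 falls and 190 to 418 rises. The median log2 fold change of the set was -0.52 on the TPM scale, -0.46 over plain read sums, -0.52 with a pseudocount of 0.1, -0.47 with 0.5, -0.53 with voom, and -0.40 without both libraries numbered 3. It ran from -0.44 to -0.41 with a library left out. Deviations of same-numbered libraries correlated at 0.0361, 0.0405 and 0.189, the last being the highest of all pairs between groups. Control library 1 correlated more with Fbxw11 library 2 (0.148) than with its own number. The main fit did not take the numbers to pair the samples, and whether the libraries numbered 3 shared a batch was not tested. The cause of these shifts was not tested, beyond fewer genes or samples where the alternative leaves them out. Counts were low for Cenpu (23 to 73 reads per library), Cenpp (29 to 71), Cenpm (53 to 108), Sgo2a (57 to 99), Oip5 (63 to 154), Cenpw (67 to 145) and Cenpk (81 to 162), and how far depth limited their calls was not tested.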
